A study of Homo sapiens with 6 samples.

Results

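The genes described here are 10 direct transcriptional outputs of the extracellular signal-regulated kinase (ERK) pathway, namely DUSP4, DUSP5, DUSP6, SPRY2, SPRY4, SPRED1, SPRED2, ETV4, ETV5 and EGR1. They were chosen by name, from what is known of the pathway, but with earlier results of these data known. All 10 were found among the 60612 genes of the deposited table. U87 cells are a long-established line grown from a human glioblastoma. RNA was sequenced from 3 libraries of U87 cells that carried a Scramble control shRNA (NC) and from 3 libraries of U87 cells that carried an shRNA against PRMT6 (shPRMT6), an arginine methyltransferase. Both groups received their shRNA by lentivirus and were grown in medium with 10% fetal bovine serum, and the study describes puromycin selection of infected glioma cells over weeks to obtain stable lines, so all libraries share infection, selection and serum growth factors. The exact time from infection to harvest of the sequenced cells and the identity of their PRMT6 shRNA were not given in the sources used here, and the library numbers were read as replicates of a single shRNA, which the methods call independent. The question put to these genes was how the RNA output of the pathway differed after PRMT6 knockdown.

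In the ERK pathway, growth factor receptors activate RAS, RAS activates the RAF kinases, RAF phosphorylates MEK, and MEK phosphorylates ERK. Active ERK switches on genes within minutes to hours, and many of these encode inhibitors that act back on the pathway. Dual-specificity phosphatases (DUSP) remove phosphate from ERK itself, while Sprouty (SPRY) and Spred proteins act higher up, between the receptor and RAF. ETV4 and ETV5, transcription factors of the PEA3 group, and EGR1, an immediate early zinc finger factor, carry the signal on to further genes. In glioblastoma the pathway is commonly driven by receptor tyrosine kinases such as EGFR or by loss of the RAS inhibitor NF1.

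Total counts ranged from 56388161 to 75887696 per library, and scaling factors ranged from 0.992 to 1.01. Values per library are given as CPM, counts scaled to the library size with TMM factors, and 3 values of a group are always listed from replicate 1 to replicate 3, for the control (NC) and the knockdown (shPRMT6) libraries. PRMT6 was at 9.34, 7.97 and 7.19 in the control libraries against 3.57, 4.58 and 5.24 CPM in the knockdown libraries. The groups did not overlap, and PRMT6 RNA in shPRMT6 was 54.7% of that in NC (adjusted p = 0.0225 from edgeR), a call that was lost without NC replicate 1 (log2 fold change -0.77) and without shPRMT6 replicate 1 (-0.73) or 2 (-0.89). Among markers fixed for the labelled line, VIM was high (1159 to 1357 FPKM, a value per gene length and sequencing depth). GFAP, an astrocyte filament, did not exceed 0.0648 FPKM in any library, and S100B was listed at 0.0001, the value that stands for no counts. With SOX2 and OLIG2 they were the 4 of these 10 line markers under 1 FPKM in every library. Of 9 line markers tested, 1 rose and 2 fell at an adjusted p of 0.05 (edgeR), which is 33.3%, beside 18.6% of all genes. CHI3L1 rose 3.08-fold, while FN1 fell to 60.6% of NC and TNC to 78.3%. Of 14 markers of other cell types, 9 were under 1 FPKM in every library, and COL1A1 (61.2 to 71.0 FPKM) made up most of their sum, which was 80.9 to 86.5 in NC and 86.2 to 87.8 in shPRMT6.

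Of the 10 genes, 4 rose in shPRMT6 (DUSP5, DUSP6, SPRED2 and EGR1) and 0 fell at an adjusted p of 0.05 (quasi-likelihood test of edgeR, adjusted by Benjamini-Hochberg over 18106 genes). Over all genes tested, 9.51% passed as higher and 9.06% as lower, or 18.6% in either direction, against 40.0% of these 10. These shares were not matched for expression level or precision. SEs of the 10 genes ran from 0.0521 to 0.123, beside a median of 0.175 over all genes tested. The median absolute log2 fold change over all genes tested was 0.309. At an unadjusted p of 0.05, which 16.3% of all genes reached as higher and 16.3% as lower, the counts for the 10 genes were 4 and 1. DESeq2 gave 5 rises and 1 fall, beside 16.3% and 15.7% of all genes, and the single fall was ETV4 in both cases. Limma on log2(FPKM + 1) gave 4 rises and 0 falls, beside 1608 rises and 1555 falls over all genes. The edgeR count of rises was 4 without NC replicate 2 and 2 without each other library in turn. Over all genes it was 1661 without NC replicate 2 and 898 to 1340 without each other library. The median log2 fold change of the 10 genes was 0.07, beside -0.01 over all genes tested, and single values ran from -0.37 for ETV4 to 0.68 for DUSP6. All changes were under 2-fold, and 0 of the 10 reached an absolute log2 fold change above 1 with an unadjusted p under 0.05, which 5.92% of all genes did. In CPM, 5 genes had no overlap between groups and were higher in shPRMT6, 2 had no overlap and were lower, and 3 overlapped. Over all genes the shares without overlap were 20.3% higher and 19.9% lower. With 3 libraries against 3, an exact two-sided permutation test cannot go below p = 0.1, and each of these 7 genes without overlap reached that value.

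**Figure D1:**
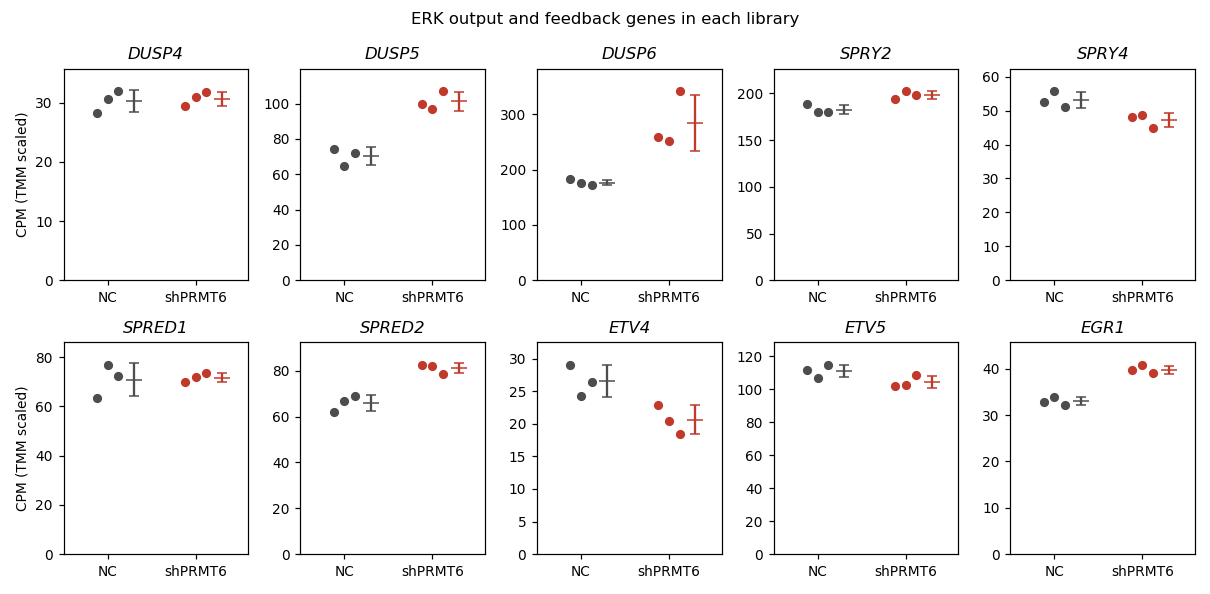
TMM-scaled CPM of each of the 10 genes (vertical axes, each starting at 0) in NC (grey) and shPRMT6 (red), with a point for each library and the mean with SD (n = 3) beside the points. DUSP5, DUSP6, SPRED2, EGR1 and, by a smaller gap, SPRY2 lie higher in all 3 shPRMT6 libraries than in any NC library, and ETV4 and SPRY4 lie lower.

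The phosphatases did not move alike. DUSP6, a cytoplasmic phosphatase selective for ERK, was at 182.5, 175 and 172 in the control libraries against 259, 251 and 342 CPM in the knockdown libraries. Every shPRMT6 library lay above every NC library, and shPRMT6 replicate 3 stood well above the other two. DUSP6 rose 1.61-fold (log2 fold change 0.68, SE 0.123, adjusted p = 0.0121, edgeR). The change was 0.53 without shPRMT6 replicate 3 and still past the threshold (adjusted p = 0.0119, edgeR), and 0.66 without NC replicate 3 and no longer past it (adjusted p = 0.0513, edgeR).

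The DUSP6 counts carry a limit of annotation. DUSP6 occupies bases 89347232 to 89353271 of chromosome 12, minus strand (GRCh38), and 1875 of its 4632 exonic bases overlap exons of AC024909.2 on the opposite strand in GENCODE 29, and 35.3% of its 75-base stretches, read on either strand, occur in both genes. Whether strand was used in counting was not given in the sources used here, and without strand the reads of the pair cannot be told apart. AC024909.2 had 355 to 844 counts in a library, against 10205 to 23141 for DUSP6, and its own log2 fold change was 0.54 (adjusted p = 0.174, edgeR). Its part in the DUSP6 result was not tested.

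DUSP5, a nuclear phosphatase that binds and inactivates ERK in the nucleus, was at 74.6, 64.7 and 71.9 in the control libraries against 99.9, 96.8 and 107 CPM in the knockdown libraries. The lowest shPRMT6 library exceeded the highest NC library by a wide margin compared with the SD of 5.08 CPM in NC and 5.23 CPM in shPRMT6. DUSP5 rose 1.44-fold (log2 fold change 0.52, SE 0.0775, adjusted p = 0.00634, edgeR) and stayed past the threshold in all 6 fits that left out 1 library, with changes from 0.47 to 0.56. The gene lies on chromosome 10 from 110497838 to 110511544 on the plus strand, and no exon of another annotated gene overlaps it.

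DUSP4, another nuclear phosphatase of ERK, was at 28.2, 30.5 and 31.9 in the control libraries against 29.4, 30.9 and 31.7 CPM in the knockdown libraries. The libraries of both groups were interleaved. Its change on the log2 scale was 0.02 (SE 0.0819, adjusted p = 0.892, edgeR). The FPKM of DUSP5 was 6.71 ± 0.778 times that of DUSP4 in NC (SD, n = 3) and 9.48 ± 0.417 times in shPRMT6 (SD, n = 3). The ratio was taken within each library and does not depend on scaling between libraries. This pair and the other ratios given here were chosen after their values were seen and carry no test.

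Of the other phosphatases of this family, DUSP1, DUSP7, DUSP8, DUSP10 and DUSP16 passed the filter on low counts, and DUSP2 and DUSP9 had no counts in any library. DUSP8 and DUSP10, which act mainly on the stress kinases JNK and p38, both fell. They were the only 2 calls among 11 tested genes of the members' families outside the members themselves. That share was 18.2%, beside 18.6% of all genes tested. DUSP10 went from 20.1 ± 2.44 to 14.9 ± 0.565 CPM (SD, n = 3; log2 fold change -0.43, adjusted p = 0.0426, edgeR). DUSP8 went from 8.78 ± 0.592 to 6.38 ± 0.543 CPM (SD, n = 3; log2 fold change -0.46, adjusted p = 0.0459, edgeR). The DUSP8 call was lost in each of the 6 fits without 1 library (changes from -0.51 to -0.39), and the DUSP10 call in all of them but the one without NC replicate 1 (changes from -0.50 to -0.33). DUSP1, an immediate early phosphatase, had a log2 fold change of 0.03 (SE 0.0759), DUSP16 one of 0.09 (SE 0.0696) and DUSP7 one of -0.26 (SE 0.0862), and none of these 3 passed the threshold.

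SPRY2, a Sprouty inhibitor of receptor signalling to RAS, was at 189, 180 and 180 in the control libraries against 194, 202 and 199 CPM in the knockdown libraries. The groups did not overlap, but the gap between them was small. The log2 fold change of 0.12 (SE 0.0521) did not pass the threshold with edgeR (adjusted p = 0.174), while DESeq2 gave 0.12 with an adjusted p of 0.0362. SPRY4 was at 52.5, 55.7 and 51.0 in the control libraries against 48.1, 48.7 and 44.99 CPM in the knockdown libraries. Here the shPRMT6 libraries were the lower ones, again without overlap (log2 fold change -0.17, SE 0.0707, adjusted p = 0.157, edgeR). The ratio of SPRY2 to SPRY4 in FPKM was 7.04 ± 0.399 in NC and 8.57 ± 0.402 in shPRMT6 (SD, n = 3). SPRY1 was at 0.801 CPM in shPRMT6 replicate 1 and between 4.53 and 7.13 CPM in the other 5 libraries, and its log2 fold change turned from -0.30 to 0.20 without that library (neither past the threshold). SPRY3 was at 10.2 ± 0.586 CPM in NC and 8.69 ± 1.55 CPM in shPRMT6 (SD, n = 3; adjusted p = 0.351, edgeR).

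SPRED2, a Spred protein that restrains activation of RAF, rose in shPRMT6, and the data did not show such a change for its relative SPRED1. SPRED2 was at 61.9, 66.6 and 68.8 in the control libraries against 82.4, 82.3 and 78.7 CPM in the knockdown libraries. All shPRMT6 libraries were above all NC libraries, and SPRED2 rose 1.23-fold (log2 fold change 0.30, SE 0.0656, adjusted p = 0.0234, edgeR). The call was lost without NC replicate 1 (0.26) and without shPRMT6 replicate 1 (0.29), 2 (0.29) or 3 (0.33), with adjusted p from edgeR between 0.0514 and 0.0926. SPRED2 spans bases 65310851 to 65432637 of chromosome 2, minus strand. SPRED1, which brings the RAS inhibitor NF1 to the membrane, was at 63.6, 76.8 and 72.5 in the control libraries against 69.9, 71.8 and 73.4 CPM in the knockdown libraries. The shPRMT6 values lay within the NC range (log2 fold change 0.02, SE 0.0834, adjusted p = 0.923, edgeR). The FPKM of SPRED2 was 1.31 ± 0.0780 times that of SPRED1 in NC and 1.59 ± 0.0775 times in shPRMT6 (SD, n = 3). SPRED3, the remaining Spred gene, was at 36.5 ± 0.313 CPM in NC and 42.9 ± 1.90 CPM in shPRMT6 (SD, n = 3; log2 fold change 0.23, adjusted p = 0.0622, edgeR).

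Neither PEA3 factor among the members passed the threshold. ETV4 was at 28.99, 24.2 and 26.5 in the control libraries against 22.9, 20.4 and 18.4 CPM in the knockdown libraries. ETV4 spans bases 43527844 to 43579620 of chromosome 17, minus strand. The highest shPRMT6 library stayed just under the lowest NC library. The change of ETV4 on the log2 scale was -0.37 (SE 0.116), which is 77.5% of NC in mean CPM, and it did not pass the threshold with edgeR (adjusted p = 0.0747) but did with DESeq2 (-0.36, adjusted p = 0.0101), the only one of 15 alternatives in which it passed. ETV5 was at 112, 107 and 115 in the control libraries against 102, 103 and 108 CPM in the knockdown libraries. Its groups overlapped in shPRMT6 replicate 3 and NC replicate 2 (log2 fold change -0.09, SE 0.0588, adjusted p = 0.343, edgeR). ETV1, the other PEA3 factor, had a log2 fold change of opposite sign, 0.46 (SE 0.182, adjusted p = 0.134, edgeR), with shPRMT6 replicate 1 (74.1 CPM) inside the NC range of 65.0 to 83.4 CPM.

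A small part of the ETV4 and ETV5 counts can be shared with neighbours. ETV5 shares 164 exonic bases with DGKG on the same strand, and 1.53% of its 75-base stretches occur there too. DGKG itself was at 24.6 ± 3.05 CPM in NC and 57.7 ± 6.67 CPM in shPRMT6 (SD, n = 3), a 2.35-fold rise (adjusted p = 0.00210, edgeR), and its part in the ETV5 value was not tested. ETV4 overlaps DHX8 on the opposite strand by 68 exonic bases. Within a library, the ratio of DUSP6 to ETV4 in FPKM was 5.76, 6.62 and 5.94 in NC libraries and 10.3, 11.2 and 16.9 in shPRMT6 libraries, so the mean ratio in shPRMT6 was 210% of that in NC.

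EGR1 was at 32.9, 34.0 and 32.3 in the control libraries against 39.6, 40.8 and 39.0 CPM in the knockdown libraries. EGR1 spans bases 138465490 to 138469315 of chromosome 5, plus strand. The replicates were tight in both groups, and the groups did not overlap. EGR1 rose 1.21-fold (log2 fold change 0.27, SE 0.0675, adjusted p = 0.0377, edgeR). Of the 6 fits without 1 library, only the one without NC replicate 2 (0.29) kept the call. It was lost without NC replicate 1 (0.26) or 3 (0.25) and without shPRMT6 replicate 1 (0.27), 2 (0.25) or 3 (0.28), with adjusted p from edgeR between 0.0779 and 0.134. EGR2 and EGR3 had log2 fold changes of -0.32 (SE 0.294) and -0.24 (SE 0.446), neither past the threshold, and EGR4 had no counts in any library.

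EGR1 is the textbook example of ERK output through serum response factor, which binds CArG boxes together with ELK factors that ERK phosphorylates. Promoters from RefSeq (GRCh38.p14, 250 bases before to 50 bases after a gene's start) were found for 6 of the 10 genes, all but DUSP4, DUSP5, ETV4 and ETV5. The CArG box, searched on both strands, was present in 1.29% of all 35116 promoter windows and in 1 of the 6 genes, EGR1, which holds 2. These 6 genes have 9 windows between them, so the shares here are per window while the members are counted per gene. The window reaches only 250 bases before the gene's start, and sites further away were not searched. Both matches are shown in capitals, from chr5:138465365-138465392 and chr5:138465387-138465414 on the plus strand.
EGR1 CArG box 1: ccggtcctgCCATATTAGGgcttcctgc
EGR1 CArG box 2: tcctgcttcCCATATATGGccatgtacg
TGANTCA, a loose form of the AP-1 motif with any base at N, was searched on both strands and present in 7.71% of windows. It was found in 1 of the 6 genes, SPRED2, at its inner start on chromosome 2, minus strand, in chr2:65366768-65366794 and chr2:65366729-65366754. The matches, in capitals, hold C and A at N, and whether AP-1 binds either was not tested.
SPRED2 AP-1 site 1: aaccctcggaTGACTCAtccggtacaa
SPRED2 AP-1 site 2: tcaaggagacTGAATCAtatatgggg
The ETS motif CCGGAAG (10.3% of windows), the octamers TGAATGAA (1.65%) and TGAATGGA (1.03%) that the repressor CIC binds, and the cAMP response element TGACGTCA (1.85%) were in none of the windows of these 6 genes, which says only that these letters do not occur there. A match in these windows is a description of sequence and was not tied to the change of either gene.

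**Figure D2:**
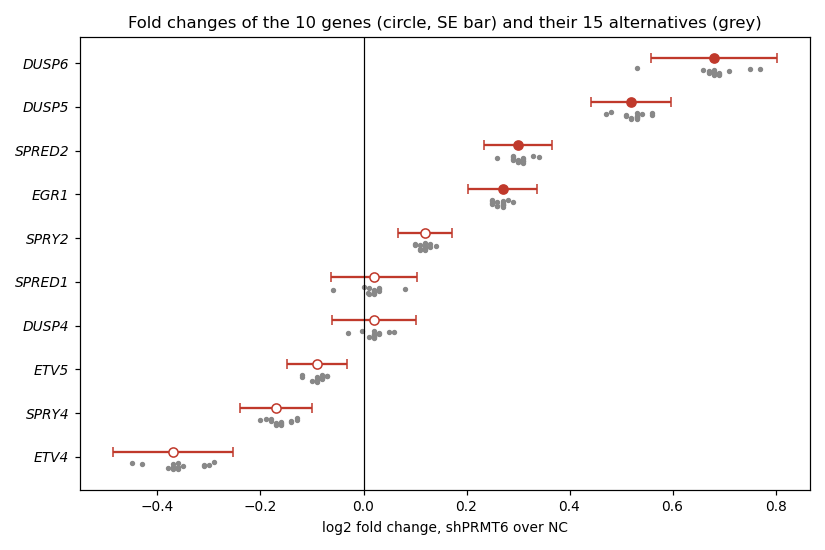
Log2 fold change of each gene (horizontal axis, shPRMT6 over NC) from edgeR with its SE, filled where the adjusted p was under 0.05, and below it in grey the values under 15 alternative settings. The 4 filled genes lie between 0.27 and 0.68, and only DUSP4 and SPRED1 have alternatives on both sides of 0.

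Levels between genes were compared in FPKM, which divides by a length for each gene. How that length was set was not given in the sources used here, and the order below depends on it. In NC the order of mean FPKM was SPRY2 (47.9), DUSP6 (38.5), DUSP5 (23.4), ETV5 (16.2), SPRED2 (10.1), EGR1 (8.86), SPRED1 (7.71), SPRY4 (6.81), ETV4 (6.34) and DUSP4 (3.50). Neighbours in this order were separated in all libraries except SPRED1 and SPRY4, and SPRY4 and ETV4, whose ranges overlapped. In shPRMT6 DUSP6 (62.3 ± 11.1 FPKM, SD, n = 3) moved ahead of SPRY2 (52.2 ± 1.14 FPKM), and the order of the other genes was as in NC. Coefficients of variation within a group, from CPM, ran from 2.21% to 10.8%, apart from DUSP6 in shPRMT6 at 17.7%.

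**Figure D3:**
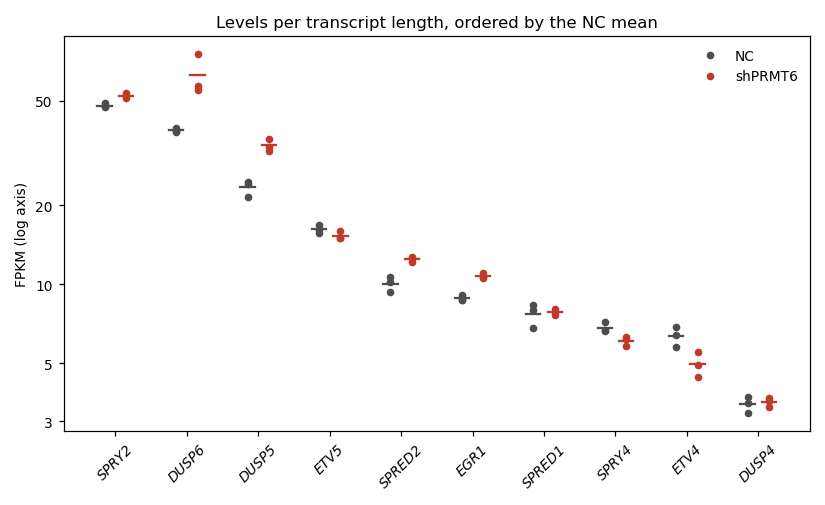
FPKM of the 10 genes on a log axis, ordered by the NC mean, with a point for each library and a line at the group mean (NC grey, shPRMT6 red). DUSP6 passes SPRY2 in shPRMT6, and the levels span from 3.50 FPKM for DUSP4 to 47.9 FPKM for SPRY2 in NC.

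Most kinases and adaptors that carry the signal to ERK did not pass the threshold, and those that did were lower in shPRMT6 apart from BRAF. Of 28 genes of the cascade, from receptors to ERK, 7 fell and 1 rose past the threshold (28.6% called, against 18.6% of all genes), with a median log2 fold change of -0.20. The falls included EGFR, FGFR1, SOS2, ARAF, MAP2K1 and MAP2K2. SOS2, an exchange factor that loads RAS with GTP, was at 38.7, 48.6 and 40.4 in the control libraries against 22.7, 26.4 and 21.2 CPM in the knockdown libraries (log2 fold change -0.86, SE 0.128, adjusted p = 0.00638, edgeR). Both MEK genes fell, MAP2K1 by 0.31 and MAP2K2 by 0.47 on the log2 scale (adjusted p = 0.00873 and 0.00845, edgeR), and both stayed past the threshold in all 6 fits without 1 library.

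EGFR fell to 72.9% of NC (207 ± 16.8 to 151 ± 3.50 CPM, SD, n = 3, log2 fold change -0.46, adjusted p = 0.00812, edgeR). BRAF was the gene of the cascade that rose, from 33.6, 39.2 and 34.4 CPM in the control libraries to 54.1, 48.8 and 61.6 CPM in the knockdown libraries (log2 fold change 0.62, adjusted p = 0.0121, edgeR). The BRAF call was lost without NC replicate 3 (0.59), and those of FGFR1 and ARAF were each kept in only 1 of the 6 fits without 1 library. The number of calls in the cascade was 4 without NC replicate 3 and 5 without NC replicate 1 or without shPRMT6 replicate 2 or 3. MAPK3, which encodes an ERK kinase, had a log2 fold change of -0.19 (SE 0.0732), not past the threshold, and the genes of the list with the highest levels per length, RRAS (0.20) and SHC1 (-0.15), did not pass either. GRB2, an adaptor named after its values were seen, had 47.1 CPM in NC replicate 1, 45.9 CPM in NC replicate 3 and between 154 and 173 CPM in the other 4 libraries (edgeR, adjusted p = 0.228).

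The list of ERK substrates held 12 genes, namely kinases and ELK factors that ERK phosphorylates, and SRF, the serum response factor that ELK factors partner. Of these 12, 4 fell and 0 rose at the adjusted threshold of edgeR (33.3% called, against 18.6% of all genes). At an unadjusted p of 0.05, 0 rose, beside 16.3% of all genes. DESeq2 also gave 4 falls and 0 rises, beside 15.7% and 16.3% of all genes. MKNK2, a kinase of the translation factor eIF4E, fell most (52.5 ± 3.43 to 17.6 ± 0.391 CPM, SD, n = 3, log2 fold change -1.58, adjusted p = 0.000270, edgeR). RPS6KA1 (-0.95) and RPS6KA2 (-0.47), which encode RSK kinases, and RPS6KA5 (-0.71), which encodes MSK1, also fell, with adjusted p from 0.00779 to 0.0338. RPS6KA2 was no longer past the threshold without NC replicate 3 (-0.40 to -0.54 over the 6 fits without 1 library) or shPRMT6 replicate 1 or 2, and RPS6KA5 passed only without shPRMT6 replicate 3 (-0.62 to -0.88 over these fits). The number of calls was 2 without NC replicate 3 or without shPRMT6 replicate 1. ELK1 (0.32, SE 0.209) and ELK3 (0.78, SE 0.426), partners of serum response factor, did not pass, and ELK3 was at 178 CPM in shPRMT6 replicate 3 against 50.6 to 64.6 CPM in the other 5 libraries. ELK4, a further such partner, had the opposite sign and did not pass either (-1.16, SE 0.743, adjusted p = 0.336, edgeR). It was at 18.6, 30.8 and 23.8 in the control libraries against 3.57, 25.0 and 4.34 CPM in the knockdown libraries.

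Other negative regulators changed in both directions, with 5 of 19 tested genes lower and 3 higher (42.1% called, against 18.6% of all genes, median log2 fold change -0.17). ERF, an ETS repressor that ERK expels from the nucleus, was at 203, 198 and 208 in the control libraries against 140, 130 and 134 CPM in the knockdown libraries (log2 fold change -0.59, adjusted p = 0.00160, edgeR). ERRFI1, an inhibitor of EGFR, was the most abundant gene of this list and fell to 72.8% of NC (-0.46, adjusted p = 0.00164, edgeR). RASA2, which switches RAS off, fell by 0.79 on the log2 scale, while RASA3, another RAS GTPase activator, rose by 0.31, DAB2IP by 1.14 and PEA15, which holds ERK in the cytoplasm, by 0.40 (adjusted p from 0.00573 to 0.0341, edgeR). PEBP1, the RAF kinase inhibitor, fell by 0.20 and CBL, a ubiquitin ligase for receptors, by 0.49. The calls of RASA3, DAB2IP, PEBP1 and CBL were lost in 5, 4, 5 and 4 of the 6 fits without 1 library, and the number of calls of the list fell to 5 without NC replicate 3 or shPRMT6 replicate 1 or 3, and to 4 without shPRMT6 replicate 2.

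Further genes known to respond to ERK also changed in both directions. Of 23 tested, 6 fell and 3 rose (39.1% called, against 18.6% of all genes, median log2 fold change -0.18). The count was 9 or 10 in each fit without 1 library. The falls included CCND1 (cyclin D1), at 1067, 1181 and 1115 in the control libraries against 518, 521 and 559 CPM in the knockdown libraries (log2 fold change -1.07, adjusted p = 0.000357, edgeR). The EGFR ligand HBEGF fell from 50.1 ± 0.915 to 28.6 ± 0.942 CPM (SD, n = 3, -0.81) and the cytokine LIF from 256 ± 7.09 to 154 ± 3.42 CPM (SD, n = 3, -0.73). EREG (-0.48), a further EGFR ligand, PLAUR (-0.52), the urokinase receptor, and FOSL1 (-0.46), an AP-1 subunit whose protein ERK stabilises, fell as well. The adjusted p of these 5 genes lay between 0.000727 and 0.00783 (edgeR).

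The 3 rises in this list were JUN, IER3 and TRIB1. JUN was at 411, 417 and 397 in the control libraries against 580, 576 and 591 CPM in the knockdown libraries (log2 fold change 0.51, adjusted p = 0.00148, edgeR). IER3, an immediate early gene that prolongs ERK activity, rose from 474 ± 13.9 to 656 ± 2.60 CPM (SD, n = 3, 0.47), and TRIB1, a pseudokinase that binds MEK, from 19.1 ± 0.637 to 33.3 ± 1.07 CPM (SD, n = 3, 0.80). The immediate early genes FOS (0.14, SE 0.562), FOSB (-0.25, SE 0.277), IER2 (0.06, SE 0.328) and ATF3 (0.06, SE 0.221) did not pass, and FOS did not exceed 0.479 FPKM in any library. Since EGR1, FOS and their like also respond to the handling of cells, heat shock genes were examined beside them. Of these 10 genes, 3 fell (HSPA1B to 49.96% of NC, HSPE1 to 54.5% and HSP90AA1 to 80.5%) while the other 7 did not pass. The share called was 30.0%, beside 18.6% of all genes tested (9.06% as lower). HSPA1B shares much of its sequence with HSPA1A, whose log2 fold change was 0.32 (SE 0.767). The summed level of the 10 heat shock genes was 1092 to 1157 FPKM in NC and 962 to 1038 FPKM in shPRMT6, and its part in the results was not tested.

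**Figure D4:**
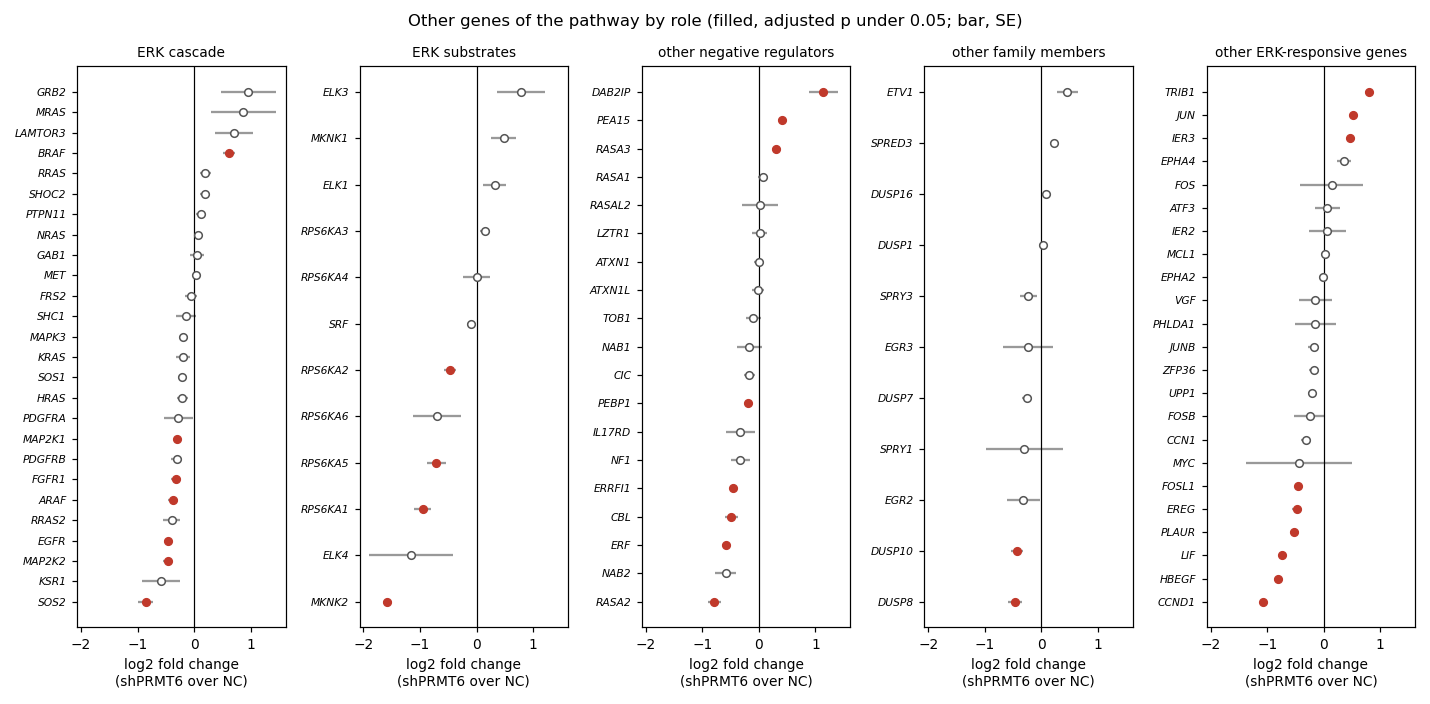
Log2 fold changes (horizontal axes, shPRMT6 over NC) with SE of tested genes of the pathway in 5 lists by role (some of the cascade are not shown), filled where the adjusted p from edgeR was under 0.05. Filled genes lie on the lower side in the cascade apart from BRAF, on the lower side among ERK substrates, and on both sides among other negative regulators and other ERK-responsive genes.

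A published set of MAPK output genes holds 6 of the members (SPRY2, SPRY4, DUSP4, DUSP6, ETV4 and ETV5) with PHLDA1, CCND1, EPHA2 and EPHA4. The mean log2 CPM over these 10 genes was 6.43, 6.44 and 6.44 in NC libraries and 6.39, 6.23 and 6.45 in shPRMT6 libraries. The groups overlapped, and the difference of the means was -0.08. PHLDA1 was at 138 CPM in shPRMT6 replicate 2 and between 304 and 385 CPM in the other 5 libraries, and without PHLDA1 the difference was -0.06. Within the set CCND1 and DUSP6 moved in opposite directions, EPHA2 had a log2 fold change of -0.01 (SE 0.0670) and EPHA4 one of 0.36 (SE 0.127, adjusted p = 0.0988, edgeR). Over the 10 members of this report the mean log2 CPM was 6.05 ± 0.00935 in NC and 6.18 ± 0.0181 in shPRMT6 (SD, n = 3), given as a description with no test. DUSP6 (0.68) and DUSP5 (0.52) had the largest log2 fold changes of the 10. Their median was 0.07, and 3 were negative.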

How the data were processed

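The authors deposited raw counts per gene and FPKM values, in which 0.0001 stands for no reads. The submitters' processing notes name HISAT2, HTSeq 0.13.5 and GRCh38. The use of strand, the annotation release, the FPKM tool and the gene lengths behind FPKM were not given in the sources used here. The labels name Trizol for RNA extraction and the methods an RNeasy kit.

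The whole count table was analysed in R 4.3.3 with edgeR 4.0.16 (TMM factors, the default low-count filter, a quasi-likelihood F test between the groups of the labels, threshold 0.05), since the methods name none for the sequencing counts. The SE is the log2 fold change divided by the square root of F. Alternatives were DESeq2 1.42.0, other scaling and filters, a replicate block, limma 3.58.1 on log2(FPKM + 1) and log2(FPKM + 0.1) above a mean FPKM of 1 and on log2(FPKM + 1) unfiltered, the threshold of the methods (absolute log2 fold change above 1 with unadjusted p under 0.05), and leaving out each library. The programs were tested on simulated counts with 200 changed genes. The simulated log2 fold changes were 1 or more in size, larger than that of any member, so recovery of smaller changes was not tested. Members had 1248 to 23141 counts a library. Replicates were not duplicates (chi-square per degree of freedom 48.2 to 78.4). The methods call them independent without saying whether cultures or infections were separate, so p-values measure the spread between these libraries, which may be technical. Symbols matched 60401 identifiers. Positions came from GENCODE 29 and promoters from RefSeq, searched with Python 3.11.15, and permutation tests used SciPy 1.17.1.

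The text names all members and their families, in each further list the 3 smallest p in each direction past the threshold and the 2 highest mean FPKM, the MAPK set and PRMT6. Other genes were chosen after their values were seen. Some genes of the cascade are counted with their list but not reported here by name. The members and lists were chosen with earlier results of these data known.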

Additional observations from a re-analysis of the deposited data

How the results depend on the processing

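Of 150 values of the 10 members under alternatives, 129 kept direction and side of the threshold, 16 lost the call, 2 gained it (ETV4 and SPRY2 with DESeq2) and 3 turned sign. With single libraries left out, DUSP4 ranged from -0.03 to 0.06 (-0.03 without NC replicate 1, -0.0022 without shPRMT6 replicate 3) and SPRED1 from -0.06 to 0.08. Of the other genes that were run under alternatives, those that turned sign were DUSP1 (-0.04 to 0.08), SPRY1 (-0.72 to 0.20) and EGR3 (-0.50 to 0.0013), none past the threshold.

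DESeq2 called 5782 of 18080 genes in all (16.3% higher and 15.7% lower). It called 5 of the 10 members higher and 1 lower, 13 of 28 genes of the cascade and 5 of 11 other family members. Over the fits without 1 library, counts ran from 1755 to 3183 for all genes and 2 to 4 of 10 for members higher. They were 4 to 9 of 28 for the cascade, 0 to 1 of 11 for the other family members, 2 to 4 of 12 for substrates and 4 to 6 of 19 for negative regulators. PRMT6 ran from -1.0 to -0.73. Unfiltered limma on log2(FPKM + 1) called 1073 of the 60612 genes of the table, 1 of 10 members and 1 of 28 genes of the cascade. It called 0 of 14 other family members, 1 of 12 substrates and 4 of 20 negative regulators, and PRMT6 was at -0.47 and not past the threshold. Filtered limma called 2 substrates with either pseudocount, beside 3163 genes in all on log2(FPKM + 1) and 3129 on log2(FPKM + 0.1). RPS6KA1 and RPS6KA5, at a mean FPKM of 0.836 and 0.209, were under its filter and were not fitted. Keeping every gene with at least 1 count left 0 calls among other family members, beside 2618 over all genes. The threshold of the methods called 1072 of 18106 genes (5.92%), 0 of 10 members, 0 of 28 genes of the cascade and 0 of 11 other family members. It called 1 each among 23 ERK-responsive genes, 12 substrates and 19 negative regulators. The cause of the other shifts was not tested.

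Same-numbered libraries did not deviate together (r from -0.0301 to -0.0171 over 18106 genes), so the numbers were not read as pairs. With the replicate block the counts were 1858 of 18106 genes in all, 2 of 10 members higher (DUSP5 and DUSP6), 4 of 28 genes of the cascade and 0 of 11 other family members. PRMT6 was at -0.88 and not past the threshold.

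Members had 1248 to 23141 counts a library, and with 3 libraries a group changes near the SEs of 0.0521 to 0.123 could not be called.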

Other observations

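Some genes of the pathway differed more between replicates than between groups, and the libraries that stood apart were not the same for each. MYC was at 14.8 CPM in NC replicate 2 and 8.84 CPM in shPRMT6 replicate 1, while the other 4 libraries lay between 76.5 and 109 CPM. GRB2 was low in NC replicates 1 and 3, SPRY1 in shPRMT6 replicate 1, PHLDA1 in shPRMT6 replicate 2 and ELK4 in shPRMT6 replicates 1 and 3, and ELK3 was high in shPRMT6 replicate 3. Among the 10 members the widest spread was that of DUSP6 in shPRMT6, with 342 CPM in replicate 3 against 259 and 251 CPM in replicates 1 and 2. Apart from DUSP6, these genes were singled out after their values were seen.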
